A study of Mus musculus with 6 samples.

Results

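Integrins are surface receptors made of 1 alpha and 1 beta chain, and the 10 genes described here encode chains known from T cells and other leukocytes: Itgal, Itgam, Itgae, Itga4, Itga1 and Itgav for alpha chains, and Itgb2, Itgb7, Itgb1 and Itgb3 for beta chains. Their regions were taken from an ATAC-seq count table of 74686 genomic regions. A region belonged to a gene if it overlapped the gene body, or if it was intergenic and that gene was the nearest protein-coding gene within 100 kb. By this rule 166 regions were members, 101 inside a gene body and 65 intergenic, and each of the 10 genes had between 5 and 37. Of these regions, 4 also lay inside a second gene: 3 of Itgae in Haspin, and 1 of Itga1 in Pelo.

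ATAC-seq marks open chromatin by the sites at which a transposase can insert adapters. The cells were OT1 CD8 T cells, whose transgenic receptor recognises a peptide of ovalbumin. They were isolated by flow sorting on CD8 and on CD45.1, a congenic mark of the transferred cells, out of tumors of B16-OVA-GP61, a mouse melanoma line given ovalbumin and the GP61 epitope as model antigens. In 3 libraries the tumor setting also held SMARTA cells, CD4 T cells with a transgenic receptor for GP61, and in 3 libraries it did not. The OT1 cells and the tumor line were common to both groups, and the labels give no age, host strain or time point. Nothing in the labels says that replicates came from separate mice, and the spread that p-values rest on here is that between libraries, which may be technical.

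The with SMARTA libraries held 20175065, 16595779 and 27182809 counts over all regions, and the without SMARTA libraries held 19149455, 26218921 and 24129749. Member regions had medians of 82.5 to 130 counts per library. The with SMARTA libraries were spread along the second principal component, with scores of -72.1, 89.1 and -36.6, against 17.7, -0.83 and 2.72 without. Where leaving out 1 library changed a call, that is given beside the result. Of 7 CD8 T cell marker genes, all had regions, with a summed accessibility of 1114 to 1331 CPM (normalised counts, scaled by library total) with SMARTA cells and 1282 to 1336 CPM without. Marker genes of other cells also had regions, 5 of 7 for melanoma cells (all but Tyr and Tyrp1), 5 of 7 for myeloid cells (all but Lyz2 and Cybb), 3 of 5 for B cells (all but Ms4a1 and Cd79a) and 6 of 7 for endothelial and stromal cells (all but Tek).

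As background, the beta2 chain Itgb2 pairs with Itgal to form LFA-1, which binds ICAM molecules at the contact of a T cell with its target, and with Itgam to form Mac-1, best known from myeloid cells. Itgae (CD103) pairs with Itgb7 and binds E-cadherin on epithelial cells, a feature of tissue-resident CD8 T cells. Itgb7 and Itgb1 both pair with Itga4, giving receptors for MAdCAM-1 and VCAM-1, while Itga1 (CD49a) with Itgb1 binds collagen. Itgav pairs with Itgb3 and other beta chains and binds ligands that carry an RGD motif, among them vitronectin, osteopontin and latent TGF-beta.

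RefSeq promoter windows (300 bases, from 250 before to 50 after the gene start, build GRCm38.p6) were matched for 6 of the 10 genes, Itgam, Itgb7, Itga4, Itga1, Itgb1 and Itgav. Itgae, Itgal, Itgb2 and Itgb3 had no matched window. The windows of 4 genes are printed because their promoter regions run from the most to the least accessible of those measured, and because the called regions of Itga4, Itgav, Itgb1 and Itgam all lay outside these windows. All 4 are on the plus strand and read 5′ to 3′: Itga4 at chr2:79255176-79255475, Itgav at chr2:83724147-83724446, Itgb1 at chr8:128685404-128685703 and Itgam at chr7:128062390-128062689. Capitals mark matches, on either strand, to the motif letters of RUNX (TGTGGT), ETS (CCGGAA), AP-1 (TGANTCA), NFAT (TGGAAA), SMAD (GTCTG) and KLF (CACCC).
Itga4: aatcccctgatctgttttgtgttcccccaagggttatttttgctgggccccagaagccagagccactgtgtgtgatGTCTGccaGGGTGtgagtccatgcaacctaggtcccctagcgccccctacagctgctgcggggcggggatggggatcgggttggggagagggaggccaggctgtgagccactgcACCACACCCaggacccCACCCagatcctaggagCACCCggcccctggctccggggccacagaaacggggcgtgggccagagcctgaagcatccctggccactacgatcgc
Itgav: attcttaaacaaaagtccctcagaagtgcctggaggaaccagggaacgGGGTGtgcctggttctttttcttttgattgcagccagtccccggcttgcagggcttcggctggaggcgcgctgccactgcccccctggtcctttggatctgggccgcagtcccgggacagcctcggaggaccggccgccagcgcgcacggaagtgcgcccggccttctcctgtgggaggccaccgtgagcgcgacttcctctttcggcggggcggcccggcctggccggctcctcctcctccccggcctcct
Itgb1: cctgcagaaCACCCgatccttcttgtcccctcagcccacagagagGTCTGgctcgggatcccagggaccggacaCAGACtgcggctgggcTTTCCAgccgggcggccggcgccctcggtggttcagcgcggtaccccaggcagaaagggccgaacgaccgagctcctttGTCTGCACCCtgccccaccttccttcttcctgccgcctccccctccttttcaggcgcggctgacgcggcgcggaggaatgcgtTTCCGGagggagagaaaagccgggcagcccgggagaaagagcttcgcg
Itgam: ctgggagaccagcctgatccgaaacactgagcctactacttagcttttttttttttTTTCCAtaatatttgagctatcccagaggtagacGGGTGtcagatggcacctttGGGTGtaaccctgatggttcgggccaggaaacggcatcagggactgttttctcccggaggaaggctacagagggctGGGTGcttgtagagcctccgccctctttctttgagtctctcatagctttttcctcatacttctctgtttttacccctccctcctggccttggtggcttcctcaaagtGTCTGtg

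Itga4 was the only one of the 6 windows with a RUNX match, which overlaps a KLF match in the run ACCACACCC. A RUNX match was present in 16.8% of 32851 promoter windows of the same length and a KLF match in 57.5%. Itgb1 held 1 ETS and 1 NFAT match, and Itgam held 1 NFAT match, against 14.9% of windows with ETS and 21.4% with NFAT. SMAD matches stood in 5 of the 6 windows, all but that of Itgav, and in 49.6% of all windows. None of the 6 held an AP-1 match, which 7.81% of windows held. The Itgb1 and Itgav windows were rich in CpG, with 27 and 24 CpG dinucleotides, while Itga1 had 12, Itga4 had 10, Itgam had 6 and Itgb7 had 5, against a median of 7 over all windows. The regions over these windows had mean levels of 6.33 log2 CPM at Itga4, 6.08 at Itgav, 5.67 at Itgb1, 4.19 at Itga1 and 2.68 at Itgam. No region overlapped the Itgb7 window. A motif match is a description of letters and not a measured binding site.

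The question of the comparison is how CD4 T cell help in the tumor relates to the chromatin state of the CD8 T cells there. A region was called when edgeR's quasi-likelihood test, adjusted by Benjamini-Hochberg over all 74686 regions, gave a value under 0.05. It was then named opened if more accessible with SMARTA cells and closed if less. In bulk sorted cells, fewer cells open at a site and less opening per cell cannot be told apart. Of the 166 integrin regions 26 were called, 15.7%, against 15.1% of all regions. Of these, 11 opened (6.63%, against 4.68% of all regions) and 15 closed (9.04%, against 10.4% of all regions). The median log2 fold was 0.01 over the members and 0.01 over all regions, so the family as a whole stood near the background.

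The calls were also counted by kind of chain. The 95 regions of alpha chain genes held 3 opened (3.16%) and 12 closed (12.6%) regions. The 71 regions of beta chain genes held 8 opened (11.3%) and 3 closed (4.23%). Over all regions 4.68% opened and 10.4% closed. Itgb3 supplied 7 of the 11 opened regions, and Itgav supplied 5 of the 15 closed ones. Without Itgb3, the beta chains had 1 opened (1.85%) and 3 closed (5.56%) of 54 regions, and all other 149 regions held 4 opened (2.68%) and 15 closed (10.1%). Itgb2 had no called region, and its region with the smallest p had an adjusted p of 0.13. The split between alpha and beta chains was not tested.

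**Figure D1:**
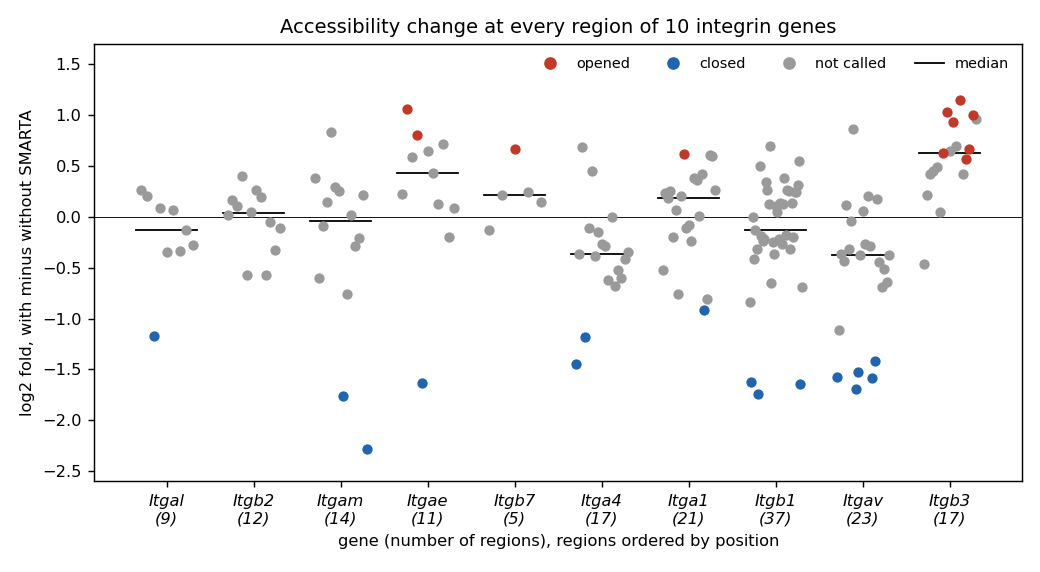
Log2 fold (with minus without SMARTA, vertical axis) of each of the 166 regions, grouped by gene and ordered by position within the gene. Red points opened, blue points closed, grey points did not pass the test and black lines are medians: the median of Itgb3 was 0.63 and that of Itgav was -0.38.

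The genes of the beta2 integrins, which carry firm adhesion and the immune synapse, held 35 regions. Among them 0 opened and 3 closed (8.57%), against 4.68% opened and 10.4% closed over all regions. At Itgal, the LFA-1 alpha chain (chr7:127296139-127335137, 9 regions), the region at chr7:127293619-127294019, 2.12 kb outside the gene, had 6.31, 2.65 and 3.89 CPM with SMARTA cells, against 7.57, 12.0 and 9.46 CPM without. The groups did not overlap, although the first library of each group came close to the other. Its log2 fold was -1.17 ± 0.30 (SE, adjusted p = 0.027), and the call was lost without replicate 3 of the with SMARTA group and without replicate 2 or 3 of the without SMARTA group. The most accessible Itgal region, at a gene end, had 61.5, 55.7 and 57.6 CPM with SMARTA cells, against 51.4, 58.7 and 53.9 CPM without. These values overlapped, with a log2 fold of 0.09 ± 0.08 (adjusted p = 0.50).

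Itgb2, the shared beta chain (chr10:77530329-77565708), had 12 regions with log2 folds from -0.58 to 0.40 and a median of 0.03. Its most accessible region, at a gene end, had 49.3, 41.9 and 39.7 CPM with SMARTA cells, against 38.5, 45.6 and 44.8 CPM without. The groups overlapped fully and the log2 fold was 0.02 ± 0.11. The Itgb2 region with the smallest p had 2.34, 2.89 and 1.83 CPM with SMARTA cells, against 2.99, 4.11 and 3.26 CPM without, a log2 fold of -0.58 ± 0.23 that did not pass (adjusted p = 0.13). No region of the beta chain that LFA-1 and Mac-1 share thus passed the test.

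Itgam, the Mac-1 alpha chain (chr7:128062640-128118491, 14 regions), held the strongest decrease of the whole family. The region at chr7:128121716-128122116, 3.23 kb outside the gene, had 3.31, 1.74 and 2.13 CPM with SMARTA cells, against 8.71, 13.6 and 12.7 CPM without. All 3 with SMARTA values lay well under the lowest without SMARTA value, and the log2 fold was -2.28 ± 0.28 (adjusted p = 0.00070). Peaks were called there in 3 of 3 libraries without SMARTA cells and in 0 of 3 with them. A second region inside the gene, at chr7:128069788-128070188, had 1.12, 1.08 and 1.09 CPM with SMARTA cells, against 4.73, 3.15 and 3.35 CPM without, again with peaks in 0 and 3 libraries. Its values with SMARTA cells were nearly equal and far under the others (log2 fold -1.76 ± 0.24, adjusted p = 0.0013). Both closures passed with any 1 library left out.

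None of the other 12 Itgam regions passed, and they leaned in either direction. Of these, 2 had all values with SMARTA cells below all values without, and 1 had them all above. Over all regions of the count table, called or not, 18.5% were all below and 15.7% all above. The promoter region had 5.80, 8.12 and 7.75 CPM with SMARTA cells, against 3.54, 6.30 and 7.81 CPM without, with overlapping groups and a log2 fold of 0.29 ± 0.28. The most accessible Itgam region had 39.6, 45.3 and 36.7 CPM with SMARTA cells, against 32.0, 34.8 and 37.7 CPM without (log2 fold 0.22 ± 0.11, adjusted p = 0.23). Itgam is also expressed by myeloid cells. Of 7 myeloid marker genes 5 had regions (Csf1r, Adgre1, Cd14, Cd68 and Fcgr1), and Lyz2 and Cybb had none. The 5 genes had a summed level of 32.0 to 33.2 CPM with SMARTA cells and 39.8 to 48.4 CPM without. Of their 8 regions 1, at Cd14, closed (12.5%, against 10.4% of all regions). None of the 5 gene sums passed, and they did not all lean one way. Log2 folds of the sums were -1.71 for Adgre1, -0.37 for Cd14 and -0.81 for Cd68, against 0.42 for Csf1r and 0.10 for Fcgr1. The part of myeloid DNA in the Itgam values was not tested.

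The regions of Itgae and Itgb7, which together form the E-cadherin receptor of resident T cells, numbered 16. Among them 3 opened (18.8%) and 1 closed (6.25%), against 4.68% and 10.4% of all regions. Itgb7, the beta7 chain (chr15:102215994-102233405, 5 regions), opened at its most accessible region, chr15:102225128-102225528, which lies inside the gene 6.61 kb past the start site. That region had 46.0, 53.8 and 52.2 CPM with SMARTA cells, against 34.3, 29.8 and 31.3 CPM without. Every value with SMARTA cells was above every value without, by more than the spread within either group (log2 fold 0.67 ± 0.10, adjusted p = 0.0020). All 6 libraries had a peak there and the call held with any 1 library left out. It was the only one of the 10 most accessible regions, 1 per gene, that passed the test.

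Itgae, CD103 itself (chr11:73090505-73147449, 11 regions, all inside the gene), changed in both directions within its body. The region at chr11:73101304-73101704 had 3.11, 3.07 and 2.84 CPM with SMARTA cells, against 1.39, 1.23 and 1.69 CPM without (log2 fold 1.06 ± 0.22, adjusted p = 0.0099). The region at chr11:73109939-73110339 had 1.88, 1.20 and 1.38 CPM with SMARTA cells, against 4.78, 4.61 and 4.50 CPM without (log2 fold -1.63 ± 0.22, adjusted p = 0.0011). Values in each group were tight at both sites and the groups did not overlap. Between them, chr11:73108183-73108583 opened as well, with 14.2, 11.4 and 11.2 CPM with SMARTA cells, against 7.97, 6.27 and 6.82 CPM without (log2 fold 0.81 ± 0.19, adjusted p = 0.020).

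The first opened and the closed Itgae region kept their calls in every fit with 1 library left out. The middle one lost its call without replicate 1 of the with SMARTA group and without replicate 2 or 3 of the without SMARTA group. The most accessible Itgae region, inside the gene and 4.12 kb from its end, had 57.0, 38.7 and 50.2 CPM with SMARTA cells, against 43.5, 42.6 and 39.2 CPM without. Replicate 2 of the with SMARTA group was the lowest of all 6 there, and the log2 fold of 0.22 ± 0.13 did not pass (adjusted p = 0.29, and 0.025 without that library). The Itgae count of opened regions was 4 without that library and 1 without replicate 1 of the same group or without replicate 2 or 3 of the other.

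Itga4, the alpha chain that pairs with beta7 and with beta1 (chr2:79255426-79333114, 17 regions), had 0 opened and 2 closed regions, and 15 of its 17 folds were negative. The closures were distal. At chr2:79172913-79173313, 82.1 kb from the gene, accessibility was 1.73, 2.23 and 1.35 CPM with SMARTA cells, against 4.58, 4.46 and 5.17 CPM without (log2 fold -1.44 ± 0.23, adjusted p = 0.0025). At chr2:79227712-79228112, 27.3 kb away, it was 18.5, 20.2 and 12.7 CPM with SMARTA cells, against 42.8, 43.9 and 29.5 CPM without (log2 fold -1.18 ± 0.20, adjusted p = 0.0038). Groups were apart at both sites, both had peaks in all 6 libraries, and both calls held with any 1 library left out.

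The Itga4 promoter region, the most accessible of all 166, did not pass. It had 71.6, 94.6 and 48.6 CPM with SMARTA cells, against 98.6, 94.1 and 87.7 CPM without. Replicate 2 with SMARTA cells reached the level of the other group while its 2 group mates were lower (log2 fold -0.39 ± 0.18, adjusted p = 0.19). Without that library the adjusted p was 0.0070, and Itga4 had 7 closed regions instead of 2. Across the Itga4 body the same library was the highest of its group at several low sites, and the with SMARTA libraries differed more among themselves here than the others did.

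Itga1, the collagen receptor chain CD49a that also marks tissue-resident cells (chr13:114958079-115101964, 21 regions), had 1 opened and 1 closed region. The opened one, inside the gene at chr13:115042609-115043009, had 14.4, 16.7 and 13.5 CPM with SMARTA cells, against 9.46, 9.23 and 10.2 CPM without. The groups were apart by a small step, with a log2 fold of 0.62 ± 0.17 (adjusted p = 0.036). The closed one, at chr13:115136751-115137151 and 34.8 kb from the gene, had 1.32, 1.26 and 1.31 CPM with SMARTA cells, against 1.99, 2.54 and 2.81 CPM without (log2 fold -0.91 ± 0.24, adjusted p = 0.028). Neither call was firm. The first was lost whichever library was left out, with adjusted p from 0.053 to 0.13, and the second was lost in 4 of the 6 fits with 1 library left out.

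The Itga1 promoter region had 25.3, 21.2 and 16.2 CPM with SMARTA cells, against 14.2, 16.7 and 17.6 CPM without. The groups overlapped and the log2 fold of 0.37 ± 0.19 did not pass (adjusted p = 0.23). The most accessible Itga1 region, which lies in Pelo as well, had 62.4, 49.8 and 54.3 CPM with SMARTA cells, against 55.6, 64.6 and 59.0 CPM without (log2 fold -0.11 ± 0.10, adjusted p = 0.52). Reads there cannot be given to one of the 2 genes.

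Itgb1, the beta chain shared by many adhesion receptors (chr8:128685654-128733579), had the most regions, 37, of which 22 were intergenic. Its 3 called regions all closed and all lay outside the gene. At chr8:128624264-128624664, 61.0 kb away, accessibility was 1.22, 1.68 and 1.09 CPM with SMARTA cells, against 4.48, 4.23 and 4.46 CPM without (log2 fold -1.74 ± 0.22, adjusted p = 0.00089). At chr8:128764039-128764439, 30.5 kb away on the other side, it was 1.99, 1.14 and 1.27 CPM with SMARTA cells, against 3.88, 5.23 and 4.63 CPM without (log2 fold -1.64 ± 0.25, adjusted p = 0.0022). The groups were far apart at both sites and leaving out any 1 library kept both calls.

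The third Itgb1 site, chr8:128605063-128605463 at 80.2 kb, had 0.458, 0.541 and 0.374 CPM with SMARTA cells, against 1.44, 1.42 and 1.32 CPM without (log2 fold -1.62 ± 0.33, adjusted p = 0.0095). Counts were low there, and the call was lost without replicate 3 of the with SMARTA group (adjusted p = 0.054). At the promoter, the most accessible Itgb1 region, values were 57.0, 50.8 and 47.8 CPM with SMARTA cells, against 52.3, 48.7 and 49.7 CPM without. These overlapped, and the log2 fold was 0.04 ± 0.09 (adjusted p = 0.79).

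Itgav and Itgb3, whose products form the alpha-v beta3 receptor, had calls in opposite directions. Itgav (chr2:83722303-83806917, 23 regions) had 0 opened and 5 closed regions, 3 intergenic and 2 inside, with log2 folds of -1.69 to -1.42. Itgb3 (chr11:104608000-104670476, 17 regions) had 7 opened and 0 closed regions, 6 inside and 1 intergenic, with log2 folds of 0.57 to 1.15. At 12 of the 17 Itgb3 regions all values with SMARTA cells were above all values without, and at 1 they were all below, against 15.7% and 18.5% of all regions. The median log2 fold was 0.63 at Itgb3 and -0.38 at Itgav. The difference between the 2 genes itself was not tested.

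The Itgb3 region with the smallest p, inside the gene at chr11:104630211-104630611, had 40.0, 39.5 and 53.3 CPM with SMARTA cells, against 29.2, 29.7 and 27.0 CPM without. All 3 values with SMARTA cells were above the other group, replicate 3 by the widest margin (log2 fold 0.63 ± 0.13, adjusted p = 0.0099). This call held with any 1 library left out. The most accessible Itgb3 region, at the low-coordinate end of the gene, had 46.9, 41.2 and 49.4 CPM with SMARTA cells, against 40.6, 40.3 and 37.9 CPM without, and did not pass (log2 fold 0.21 ± 0.10, adjusted p = 0.17). The 7 opened regions all lay beyond the first 20 kb of the gene.

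The strength of the Itgb3 pattern rested on few libraries. Its count of opened regions was 1 without replicate 3 of the with SMARTA group, 1 without replicate 2 of the without SMARTA group and 3 without replicate 3 of that group, and it was 5 or 6 in the other 3 fits. With scaling by total counts it was 4. The sign of the fold at each of the 7 regions did not change in any of these fits. The largest fold, singled out after its values were seen, was at chr11:104661245-104661645, with 7.64, 18.6 and 13.4 CPM with SMARTA cells, against 4.78, 6.34 and 6.70 CPM without (log2 fold 1.15 ± 0.30, adjusted p = 0.029). There the 3 libraries with SMARTA cells differed widely among themselves.

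The Itgav region with the smallest p, chr2:83718422-83718822 at 3.48 kb from the gene, had 0.967, 0.722 and 1.05 CPM with SMARTA cells, against 2.84, 3.38 and 2.77 CPM without. The 3 libraries of each group were close to each other and the groups were far apart (log2 fold -1.69 ± 0.24, adjusted p = 0.0017). The Itgav promoter region, its most accessible, had 79.9, 58.4 and 68.7 CPM with SMARTA cells, against 66.6, 65.5 and 67.4 CPM without. It overlapped fully, with a log2 fold of 0.05 ± 0.10 (adjusted p = 0.78).

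A further Itgav region, chosen after its values were seen because it adjoins the gene, closed at chr2:83721756-83722156, with 7.79, 2.71 and 3.89 CPM with SMARTA cells, against 13.8, 14.3 and 13.3 CPM without (log2 fold -1.52 ± 0.32, adjusted p = 0.011). It was the only one of the 20 member regions within 2 kb of an end of their own gene that was called. The call was lost without replicate 3 of the with SMARTA group. The Itgav count of closed regions was 2 without that library, 3 without replicate 2 of the without SMARTA group, and 4 to 7 in the other 4 fits.

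**Figure D2:**
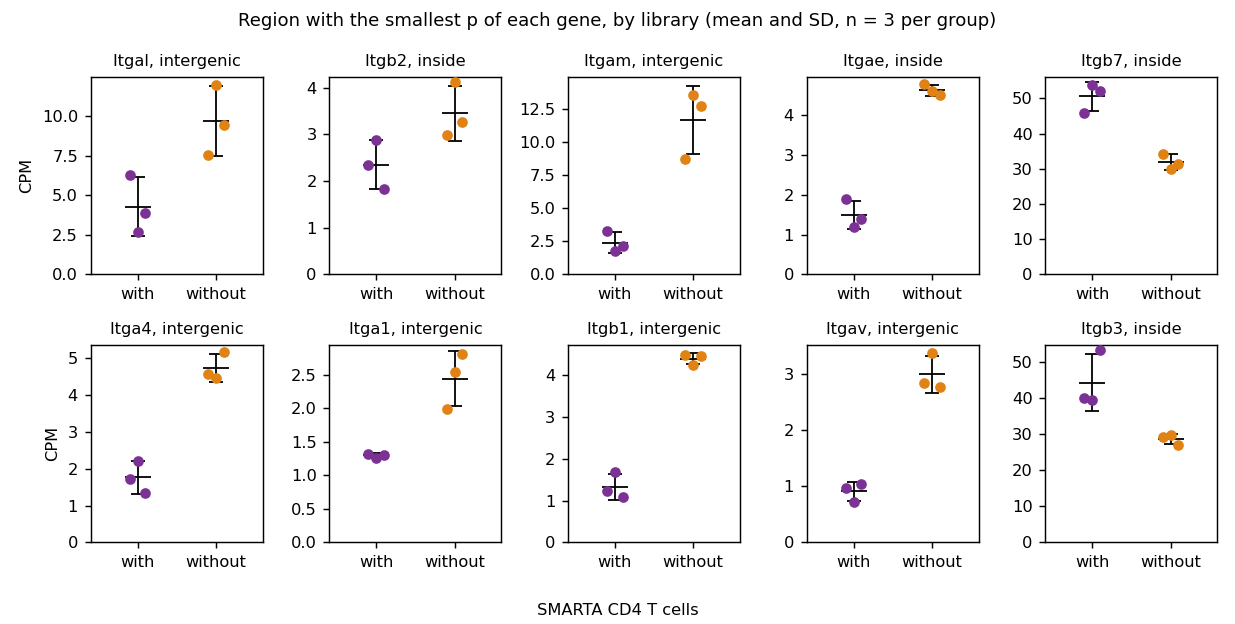
CPM by library (points, with mean and SD, n = 3 per group) at the region with the smallest p of each gene, with SMARTA cells at left and without at right. The groups are apart in every panel, lower with SMARTA cells at 8 genes and higher at Itgb7 and Itgb3, and the Itgb2 region did not pass the test. Each region was picked by its p, so the gap between groups follows largely from that choice. The directions here do not stand for the family, since 49.4% of the folds of all 166 regions were negative.

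**Figure D3:**
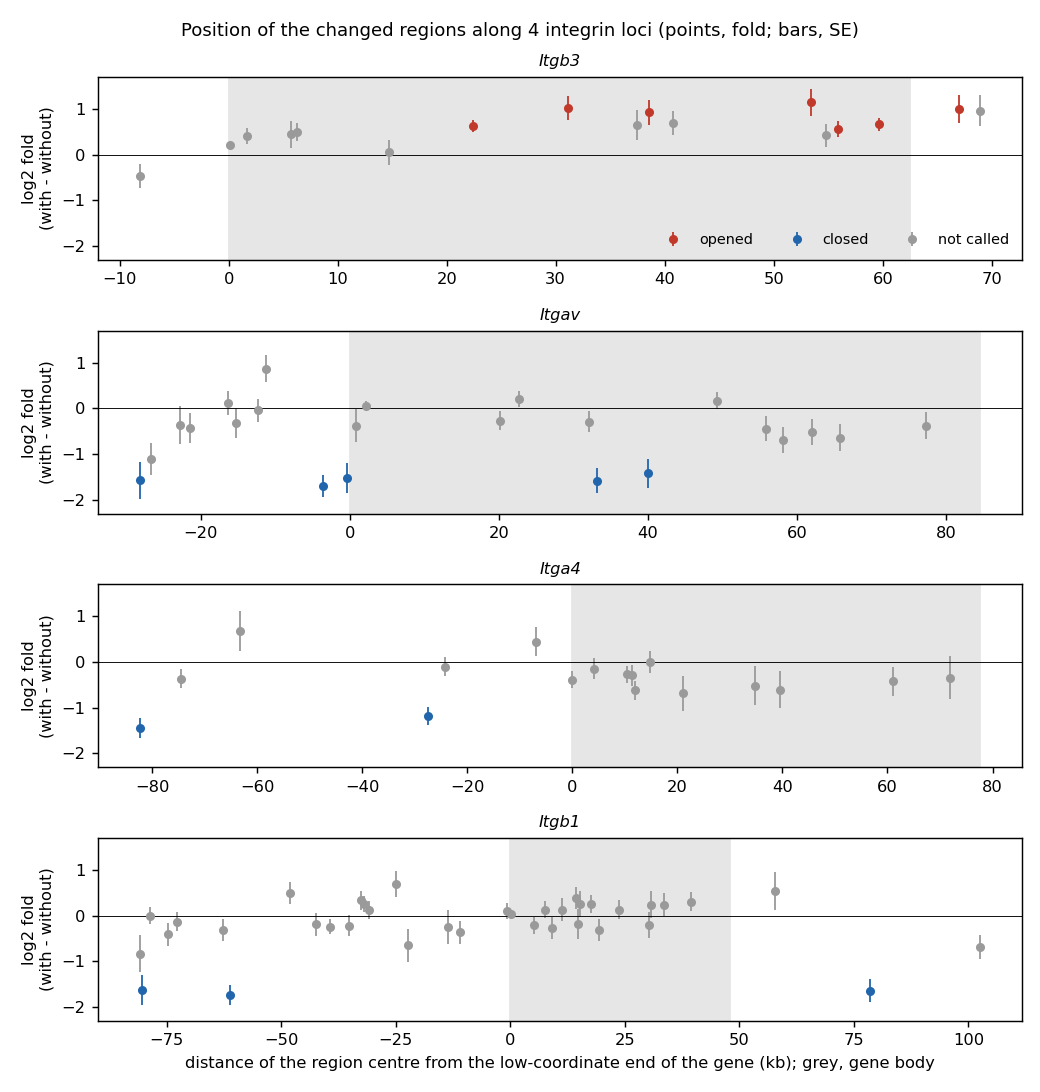
Log2 fold (with minus without SMARTA, points, with SE bars) of each region against the distance in kb of its centre from the low-coordinate end of the gene, at Itgb3, Itgav, Itga4 and Itgb1, with the gene body in grey. The 7 opened Itgb3 regions are mostly inside the gene, while the 2 closed Itga4 and 3 closed Itgb1 regions are outside it.

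One value per gene was obtained by summing the counts of all its regions, a sum set mainly by the most accessible ones, and fitting 15960 such gene sums. Of the 10 integrin sums 1 was called, against 7.61% of all gene sums, of which 1.97% were higher and 5.63% lower with SMARTA cells. It was Itgb7, with 97.7, 101 and 99.7 CPM with SMARTA cells, against 80.5, 76.7 and 76.6 CPM without. The means were 99.4 ± 1.57 CPM with SMARTA cells and 77.9 ± 2.21 CPM without (SD, n = 3 each), a log2 fold of 0.35 ± 0.06 (SE, adjusted p = 0.0064 by edgeR). The Itgb7 sum passed with any 1 library left out.

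Its partner Itgae had sums of 150, 127 and 148 CPM with SMARTA cells, against 123, 130 and 126 CPM without (log2 fold 0.17 ± 0.08, adjusted p = 0.21, and 0.038 without replicate 2 of the with SMARTA group). Itgb3 had 224, 198 and 258 CPM with SMARTA cells, against 188, 168 and 171 CPM without. The Itgb3 groups did not overlap, and its log2 fold of 0.37 ± 0.10 missed the threshold at an adjusted p of 0.052. With 1 library left out its adjusted p ran from 0.0075, without replicate 2 of the with SMARTA group, to 0.17.

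Itga4 and Itgav leaned the other way without passing. Itga4 had sums of 143, 179 and 104 CPM with SMARTA cells, against 226, 200 and 187 CPM without (log2 fold -0.53 ± 0.17, adjusted p = 0.089). Itgav had sums of 220, 115 and 180 CPM with SMARTA cells, against 263, 229 and 226 CPM without (log2 fold -0.48 ± 0.19, adjusted p = 0.16). In both genes the with SMARTA libraries were spread far more widely than the others, and the result moved with the library left out. The Itga4 fold ran from -0.73 without replicate 2 of the with SMARTA group (adjusted p = 0.0082) to -0.34 without its replicate 3, with adjusted p up to 0.24 over the 6 fits. The Itgav fold ran from -0.70 without replicate 1 of that group (adjusted p = 0.048) to -0.26 without its replicate 2, the lowest library, with adjusted p up to 0.36.

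The other 5 sums did not pass. Itga1 had 284, 234 and 228 CPM with SMARTA cells, against 225, 257 and 249 CPM without, a log2 fold of 0.03 ± 0.10. Itgb1 had 281, 246 and 214 CPM with SMARTA cells, against 265, 264 and 262 CPM without (log2 fold -0.10 ± 0.10), where the without SMARTA libraries were almost equal. Itgam had 94.2, 106 and 93.7 CPM with SMARTA cells, against 101, 108 and 118 CPM without, a log2 fold of -0.16 ± 0.08 (adjusted p = 0.25) that stayed negative in every fit with 1 library left out. The log2 folds of the LFA-1 chains were 0.01 ± 0.08 for Itgal and -0.04 ± 0.09 for Itgb2.

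**Figure D4:**
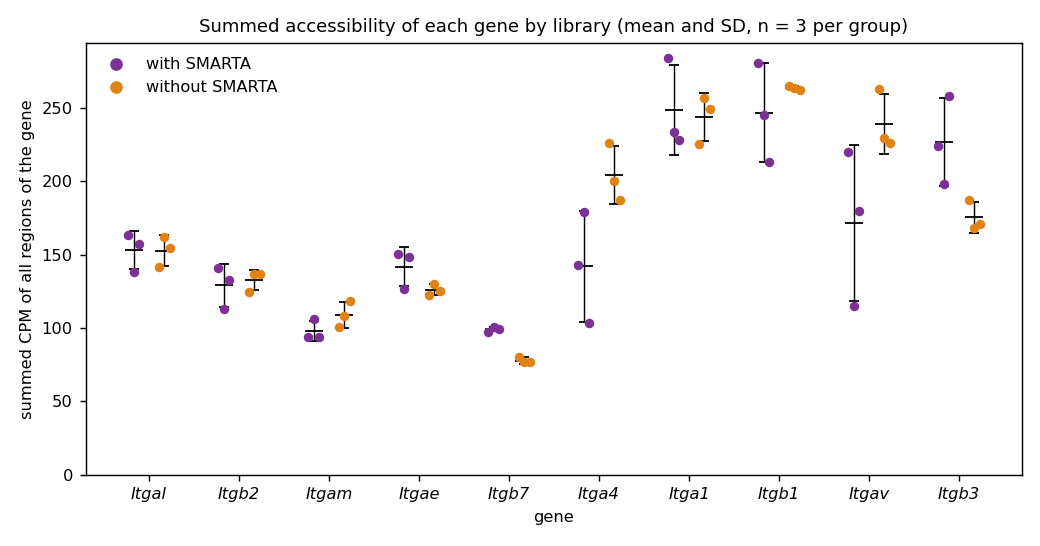
Summed CPM of all regions of each gene, by library (points, with mean and SD, n = 3 per group), with SMARTA cells left of without. Itgb7 is the only sum that passed the test, and the with SMARTA libraries of Itga4 and Itgav are widely spread.

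The called regions were also set out by level and place. The 11 opened regions had a median level of 3.22 log2 CPM, against 3.53 for all opened regions of the table. The 15 closed regions had a median level of 1.41 log2 CPM, against 1.54 for all closed regions, and 14 of them changed at least 2-fold, against 4 of the opened ones. Opened members were thus of higher level and smaller fold than closed ones, as in the table at large. Since regions are nearly all 401 bases wide, these levels compare like lengths.

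By place, the 20 member regions within 2 kb of an end of their own gene held 0 opened and 1 closed. Among all regions within 2 kb of an end of any protein-coding gene, 5.08% opened and 4.06% closed. Further inside the genes stood 87 regions, with 10 opened (11.5%) and 4 closed (4.60%), whereas in the whole table such regions opened in 4.88% and closed in 12.0% of cases. Of these 10 opened regions 6 were from Itgb3. Intergenic members more than 2 kb from the gene numbered 59, with 1 opened (1.69%) and 10 closed (16.9%), against 3.89% and 12.4% of all such regions. Members were placed by the ends of their own gene and all regions by those of any gene, so the classes are not defined alike. The shares were not tested. The most accessible region of each gene had a level of 5.23 to 6.33 log2 CPM, 7 of these 10 lay at a gene end, and 9 did not pass the test.

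The authors' peak lists, called library by library from the same reads, add whether a site was seen as a peak at all. Of the 11 opened regions 8 had a peak in all 6 libraries and 2, both at Itgb3, had one in 3 libraries with SMARTA cells and 0 without. Of the 15 closed regions 11 had no peak in any library with SMARTA cells, and 7 had peaks in 0 libraries with SMARTA cells and 3 without. The 4 closed regions that still had a peak with SMARTA cells were those of Itga4 and 1 each at Itga1 and Itgb1. Of the 140 uncalled members 72 had a peak in all 6 libraries and 14 had none in any library with SMARTA cells. Closed integrin sites thus mostly had no peak with SMARTA cells, while opened sites mostly had peaks in both groups. Since peaks and counts share the same reads, the peaks are not separate evidence for the calls. Shares over all opened and closed regions of the count table are not given here.

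**Figure D5:**
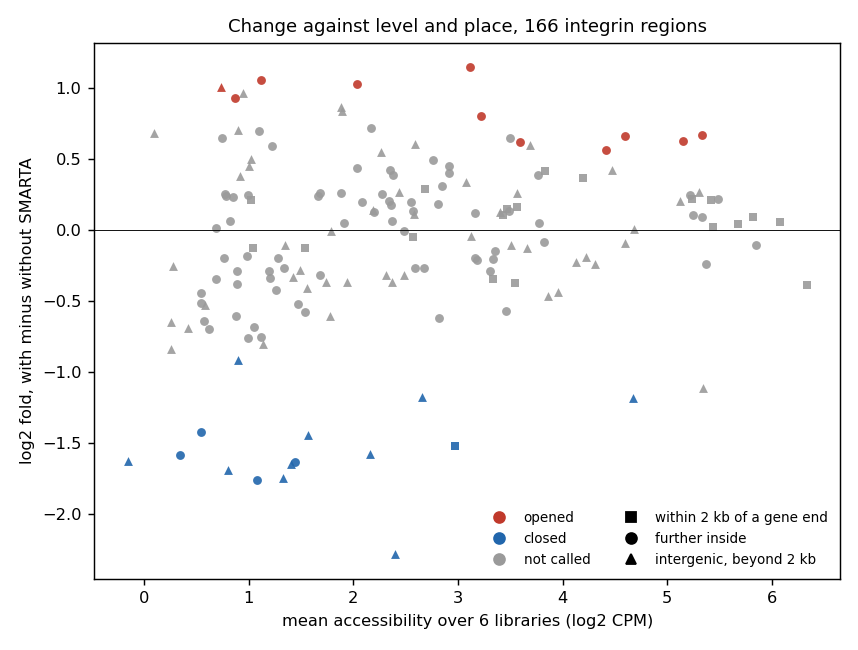
Log2 fold (with minus without SMARTA) against mean level over 6 libraries (log2 CPM) of the 166 regions, with colour for the call and marker shape for place. Closed regions sit at a median level of 1.41, opened ones at 3.22, and the most accessible region of each gene did not pass, except that of Itgb7.

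The other 16 integrin chain genes held 92 regions, of which 2 opened and 12 closed, with a median log2 fold of -0.06. Calls covered 15.2% of the 92 regions, against 15.1% of all regions. With 1 library left out these genes had 0 to 1 opened and 9 to 15 closed regions. Their smallest p was at Itgad, an alpha chain that pairs with beta2 and lies near Itgam, at chr7:128170034-128170434. This region had 1.73, 0.962 and 1.42 CPM with SMARTA cells, against 4.28, 7.96 and 6.74 CPM without (log2 fold -2.19 ± 0.29, adjusted p = 0.0011), with the groups far apart. The Itga11 sum was the only one of these genes' sums to pass, and it was lower (log2 fold -1.15, adjusted p = 0.025), a call lost without replicate 3 of the with SMARTA group or replicate 1 of the other.

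Genes that switch integrins on from inside the cell or tie them to actin (17 genes, 223 regions) held 18 opened and 20 closed regions, with a median log2 fold of 0.07. Calls covered 17.04% of the 223 regions, against 15.1% of all regions. The fits with 1 library left out gave 2 to 16 opened and 12 to 23 closed regions, so none of them reached 18 opened. Vcl, which encodes the actin linker vinculin, closed at 7 of its 11 regions. At chr14:20967295-20967695 Vcl had 0.815, 0.842 and 0.898 CPM with SMARTA cells, against 4.63, 10.6 and 8.10 CPM without (log2 fold -3.18 ± 0.33, adjusted p = 0.00038). The values with SMARTA cells were almost equal and near the lowest of any named region, and the call held with any 1 library left out. The Vcl sum was lower (log2 fold -0.32, adjusted p = 0.033) and that of Fermt3, the kindlin of blood cells, was higher (0.31, adjusted p = 0.034). The Fermt3 call was lost in each of the 6 fits with 1 library left out, and the Vcl call in 4 of them.

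Integrin ligands (9 genes, of which Vcam1 and Vtn had no region) held 35 regions, 3 opened and 2 closed, with a median log2 fold of 0.07. Calls covered 14.3% of the 35 regions, against 15.1% of all regions. With 1 library left out the ligand genes had 3 to 6 opened and 1 to 3 closed regions. Cdh1, which encodes E-cadherin, the ligand of CD103, opened at 3 of its 13 regions and had a higher sum (log2 fold 0.55, adjusted p = 0.015). Spp1, which encodes osteopontin, had a lower sum (log2 fold -0.90, adjusted p = 0.019). Each of these calls was lost in some fits with 1 library left out, 2 of 6 for Cdh1 and 3 of 6 for Spp1. The smallest p was at Tgfb1, whose latent product binds alpha-v integrins, at chr7:25707513-25707913, with 6.67, 4.33 and 8.31 CPM with SMARTA cells, against 13.4, 21.8 and 19.6 CPM without (log2 fold -1.50 ± 0.27, adjusted p = 0.0047). All Tgfb1 values with SMARTA cells were under those without.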

How the data were processed

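ATAC-seq was run on sorted OT1 CD8 T cells of B16-OVA-GP61 melanomas in 6 libraries, 3 with and 3 without SMARTA CD4 T cells, grouped by the sample titles. The count table deposited by the authors holds raw read counts per region with no normalization. The peak lists, deposited per library, hold the authors' peak caller's score, enrichment ratio and −log10 p and q values for each peak, and only the peak positions were used here. The submitters' processing notes list, without roles, DiffBind 3.4.11, MACS2 2.1.1, Picard 2.18.9, SAMtools 1.8, BWA 0.7.17 and the build GRCm38. The sources used here give neither how duplicates were handled nor whether reads were shifted for the transposase. Duplicates that stayed would raise counts.

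Regions were assigned by an overlap of at least 1 base with a gene of the RefSeq table for GRCm38.p6, used without strand, or else to the nearest gene within 100 kb, and assignment does not show which gene a site controls. All 74686 regions were fitted with edgeR 4.0.16 (R 4.3.3, quasi-likelihood test, TMM, filterByExpr, which removed 0 regions). The biological coefficient of variation was 18.0%. CPM values use TMM-scaled totals, levels are log2 CPM with a prior count of 2, and SE is the size of the log2 fold divided by the root of F. Data for the comparison with SMARTA against without SMARTA were simulated over 74686 regions, of which 74486 were left unchanged. The test found 4 of the 50 regions with a simulated fold of 1.5 and 15 of the 50 with a fold of 2. It found 49 of the 50 with a fold of 4 and 50 of the 50 with a fold of 8, and made 12 false calls. With so few changed regions the Benjamini-Hochberg cut was stricter than in the real comparison, which called 11264 regions. These shares thus do not give the power of the real test.

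The members, lists and named regions were chosen with earlier results of these data known. Each gene is described by its region of smallest p, its most accessible region, its promoter region and its called regions, given by their range where there are more than 3. Alternatives were DESeq2 1.42.0 with its size factors, other scalings, filters, assignment distances, a replicate block and fits with 1 library left out. Promoter sequences are from RefSeq. With 3 libraries a group, and PCR reads that are not independent molecules, precision is set by the spread between libraries.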

Additional observations from a re-analysis of the deposited data

How the results depend on the processing

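None of the 26 called regions changed direction under any alternative, and 12 of them, 3 opened and 9 closed, passed in every fit with 1 library left out. With 1 library left out, the members had 3 to 12 opened regions and 9 to 21 closed ones, against 11 and 15. The fewest opened were 3, without replicate 2 of the without SMARTA group, with 5 without its replicate 3, and 6 without replicate 3 of the with SMARTA group. That last fit also gave the 9 closed. The same fits gave 1224 to 4259 opened and 4403 to 8410 closed regions in the whole table, 1 to 3 higher and 0 to 1 lower member gene sums, and 88 to 433 higher and 412 to 1036 lower gene sums over all genes. Counting regions in gene bodies alone left 4 closed members, and an intergenic limit of 20 kb left 8. Of the member gene sums, 2 were higher with scaling by total counts, with loess scaling, with DESeq2 and with gene bodies alone, against 1 in the report. In DESeq2 1 member sum was lower, against 0, and 565 sums were higher over all genes, against 315.

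Some uncalled folds near 0 changed sign. Loess scaling gave -0.022 at the most accessible Itgal region, -0.069 at that of Itgb2, -0.063 at that of Itgb1, -0.077 at that of Itgav and -0.023 for the Itgal sum, and total-count scaling gave -0.020 at that of Itgb2. Gene bodies alone gave -0.051 for the Itgal sum and -0.045 for Itga1, and the 20 kb limit gave -0.043 for Itga1 and 0.0086 for Itgb1. With 1 library left out, folds of the most accessible regions ran from -0.078 to 0.11 at Itgb2, -0.029 to 0.12 at Itgb1 and -0.064 to 0.16 at Itgav. The sums ran from -0.050 to 0.069 for Itgal, -0.12 to 0.040 for Itgb2 and -0.083 to 0.087 for Itga1.

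The labels do not say whether replicate numbers pair the samples. Same-numbered libraries showed little shared deviation from their group means, with correlations of -0.02, -0.08 and 0.08. The fit with a replicate block gave 10 opened members, 8 of them called without the block, and 15 closed, 14 of them shared, with 1 lower member sum. The causes of these shifts were not tested. Member counts went down to 8 in a library, and the effect of depth on these calls was not tested.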

Other observations

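Beside the count table, the peak lists held 95 peaks at these 10 genes that overlap no counted region. Of these, 89 were called in 1 library only. At Itga1 one at chr13:115081060-115081339 was called in 2 libraries with SMARTA cells and in 0 without. At Itgb2 (chr10:77571681-77572172) and Itga4 (chr2:79310227-79310580) there was a peak in 0 libraries with SMARTA cells and in 2 without. No counts were used for these sites, and no test was made.

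Summed accessibility of marker genes of other cells was compared as a description. The 3 B cell marker genes with regions had 30.2 to 34.2 CPM with SMARTA cells and 35.6 to 49.1 CPM without, with no overlap. The 4 CD4 T cell markers Cd4, Foxp3, Cd40lg and Zbtb7b had 223 to 243 CPM with SMARTA cells and 191 to 225 CPM without, and 4 of their 23 regions opened while 2 closed. The 4 NK cell markers had 399 to 491 CPM with SMARTA cells and 430 to 466 CPM without. Melanoma markers had 265 to 288 CPM with SMARTA cells and 258 to 273 CPM without, and endothelial and stromal markers had 62.7 to 73.5 CPM with SMARTA cells and 68.3 to 76.7 CPM without, with 0 called regions in either list. The part of other cells in the integrin values was not tested.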
